A study of Mus musculus with 8 samples.

Results

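The cytosolic ribosomal protein genes were examined in the H3K27ac landscape of Oli-neu cells. Members were the protein-coding genes of GENCODE M21 (GRCm38/mm10) whose symbol starts with Rpl or Rps and a number, together with Rplp0, Rplp1, Rplp2 and Rpsa. The 6 protein-coding symbols that carry the pseudogene suffix and the 10 Rps6k genes, which encode kinases that phosphorylate a ribosomal protein, were left out. This rule took 86 of 21951 protein-coding genes: 46 canonical genes of the large (60S) subunit, 31 of the small (40S) subunit and 9 other symbols, mostly paralogs. The rule used names only and no measured value.

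H3K27ac, the acetylation of lysine 27 of histone H3, is found on the nucleosomes that flank active promoters and enhancers. It was mapped by ChIP-seq in Oli-neu, an established mouse oligodendroglial line immortalised with an activated neu (erbB2) oncogene and labelled C57BL/6. Proliferating cells in growth medium and differentiating cells, deprived of growth factors and given the erb inhibitor PD174265 at 1 µM, gave 1 library each; the labels put differentiation at 1 day and the culture methods of the study at 2 days. The study's 6 ATAC-seq samples, 3 siCtr and 3 siPadi2, were not analysed here. As each state has 1 library, the spread between cultures is not known and every comparison of proliferating with differentiating cells is a description. The lists hold no read counts, so depth per peak is unknown. The paper gives more uniquely mapped reads for the differentiating than for the proliferating library. The part this difference played in the numbers of peaks was not tested.

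The ribosome is built from ribosomal RNA and a near-equimolar set of ribosomal proteins, so the canonical subunit genes are transcribed together in growing cells. Their promoters are typically compact and CpG-rich, and transcription tends to start at a C followed by a run of pyrimidines, the start of the 5′ terminal oligopyrimidine (TOP) tract through which mTOR signalling tunes translation of these mRNAs. Mutations in a subset of them cause Diamond-Blackfan anaemia, a failure of red cell production.

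The lists carry promoter peaks at genes of the oligodendrocyte lineage. Sox10, Olig1 and Olig2, the transcription factors that define the lineage, had one in both states. In all, 3 of 9 precursor markers had a promoter peak in proliferating and 5 of 9 in differentiating cells, while Pdgfra had none. Of 7 mature markers none had one in proliferating cells and Myrf alone had one in differentiating cells. The astrocyte, microglia and endothelial markers had none in either list, and of 5 neuronal markers only Syt1 had one, in differentiating cells.

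Stretches of promoter sequence are printed first, because the members shared features of sequence that the naming rule did not use. All were read from the GRCm38.p6 assembly of RefSeq and run 5′ to 3′ on the coding strand, from 100 bases before the start of the principal GENCODE transcript through the first 30 transcribed bases. The first set shows the octamer TCTCGCGA, on either strand and in capitals, which lay close to the start in the genes of small-subunit proteins Rps6, Rps28 and Rps15a and of large-subunit proteins Rpl7a and Rpl26. Rps6 (chr4:86857383-86857512, minus strand) and Rpl7a (chr2:26910664-26910793, plus strand) had a promoter peak in both lists. Rps28 (chr17:33824533-33824662, minus strand) had one in differentiating cells only, and Rps15a (chr7:118116159-118116288, minus strand) in proliferating cells only. Rpl26 (chr11:68901483-68901612, plus strand) had none in either.
Rps6: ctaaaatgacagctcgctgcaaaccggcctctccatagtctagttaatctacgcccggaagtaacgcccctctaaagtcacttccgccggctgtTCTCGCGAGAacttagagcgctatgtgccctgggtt
Rps28: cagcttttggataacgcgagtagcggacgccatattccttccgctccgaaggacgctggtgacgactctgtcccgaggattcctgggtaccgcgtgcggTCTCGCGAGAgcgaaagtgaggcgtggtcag
Rpl7a: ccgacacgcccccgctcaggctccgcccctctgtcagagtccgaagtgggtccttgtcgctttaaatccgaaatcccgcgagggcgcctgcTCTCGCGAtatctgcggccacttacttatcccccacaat
Rps15a: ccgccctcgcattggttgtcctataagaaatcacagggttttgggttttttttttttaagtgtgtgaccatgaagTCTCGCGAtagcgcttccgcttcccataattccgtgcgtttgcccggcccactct
Rpl26: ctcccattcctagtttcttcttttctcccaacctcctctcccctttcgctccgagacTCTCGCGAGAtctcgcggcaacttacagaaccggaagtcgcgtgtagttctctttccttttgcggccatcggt

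The second set shows CCGGAA, the core of the site bound by ETS-family transcription factors, again in capitals on either strand. Rps7 (chr12:28635924-28636053, minus strand) and Rpl27 (chr11:101442198-101442327, plus strand) were among the strongest members in differentiating cells, and Rps21 (chr2:180257277-180257406, plus strand) had a promoter peak in both lists.
Rps7: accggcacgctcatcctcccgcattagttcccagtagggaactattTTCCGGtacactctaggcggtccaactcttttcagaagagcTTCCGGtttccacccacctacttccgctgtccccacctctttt
Rpl27: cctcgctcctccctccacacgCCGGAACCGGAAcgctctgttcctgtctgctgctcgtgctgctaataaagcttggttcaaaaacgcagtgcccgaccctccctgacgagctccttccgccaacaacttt
Rps21: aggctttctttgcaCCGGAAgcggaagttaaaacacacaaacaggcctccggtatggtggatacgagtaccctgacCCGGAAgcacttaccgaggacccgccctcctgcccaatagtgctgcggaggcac

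The third set shows, in capitals, a pyrimidine tract near the start, the longest that begins with a C within 15 bases of it. The genes are Rpl11 (chr4:136053364-136053493, minus strand), Rps27a (chr11:29548080-29548209, minus strand) and Rpl29 (chr9:106429354-106429483, plus strand), which had promoter peaks in both lists. In Rps27a and Rpl29 the tract in capitals lies before the annotated start. In Rps27a an equally long tract past the start is left in lower case. Rps29 (chr12:69159157-69159286, minus strand), which carried the highest fold enrichment of all members, follows with no capitals because it held none of the 3 features.
Rpl11: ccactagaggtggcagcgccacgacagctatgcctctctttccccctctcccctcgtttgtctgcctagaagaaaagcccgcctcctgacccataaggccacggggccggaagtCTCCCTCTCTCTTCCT
Rps27a: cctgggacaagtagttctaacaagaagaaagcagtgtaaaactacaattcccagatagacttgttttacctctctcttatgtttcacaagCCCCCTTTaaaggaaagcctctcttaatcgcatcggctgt
Rpl29: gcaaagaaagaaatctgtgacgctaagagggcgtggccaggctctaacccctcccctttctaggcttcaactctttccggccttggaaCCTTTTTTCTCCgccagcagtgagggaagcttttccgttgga
Rps29: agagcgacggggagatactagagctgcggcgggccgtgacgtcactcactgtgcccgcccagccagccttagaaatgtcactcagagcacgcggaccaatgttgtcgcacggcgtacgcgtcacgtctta

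More members than protein-coding genes at large carried H3K27ac at the promoter. A promoter peak was a deposited peak that shared at least 1 base with a region reaching 3000 bp before and 100 bp past the TSS, the transcription start of the gene record. In proliferating cells 42 of 86 members (48.8%) had one, where 23.7% of all protein-coding genes did. In differentiating cells 52 of 86 (60.5%) had one, beside 27.7% of all genes. Counted over either list the numbers were 61 of 86 (70.9%) and 33.8%, and over both lists 33 of 86 (38.4%) and 17.6%. Each promoter peak belonged to a different member, 42 peaks for 42 genes and 52 peaks for 52 genes. In a window of 1000 bp to either side of the start, the members counted were 52 in proliferating cells (26.9% of all genes), 59 in differentiating cells (31.1%), 68 in either list (36.4%) and 43 in both lists (21.6%).

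**Figure D1:**
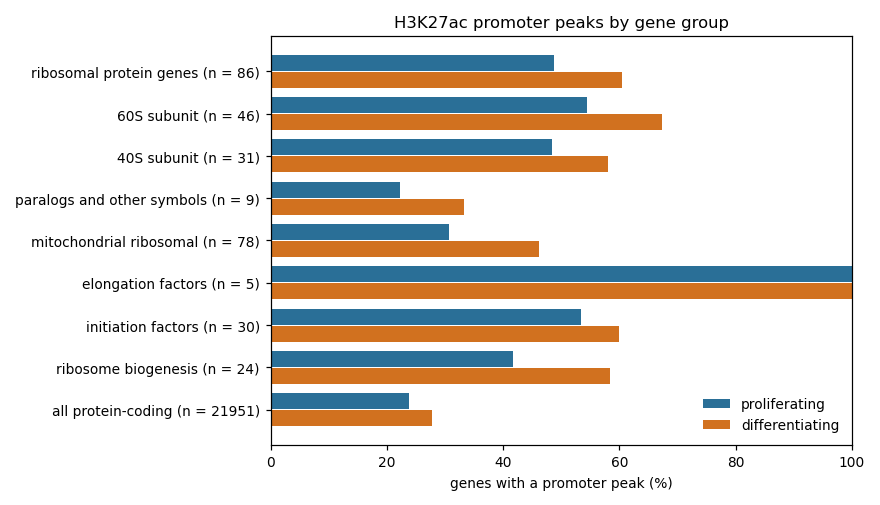
Share of genes with an H3K27ac promoter peak (%, horizontal axis) in proliferating (blue) and differentiating (orange) Oli-neu cells, 1 library each, by gene group with its number of genes. The bar for ribosomal protein genes reaches 48.8% and 60.5%, that for all protein-coding genes 23.7% and 27.7%, and all 5 elongation factors had a peak in both states.

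The large-subunit genes had a promoter peak in 25 of 46 cases in proliferating and 31 of 46 in differentiating cells. Small-subunit genes had one in 15 of 31 and 18 of 31. Over either list the shares of the subunits were 76.1% for 60S and 71.0% for 40S genes. Of the 9 remaining symbols 2 (22.2%) had one in proliferating and 3 (33.3%) in differentiating cells, close to the 23.7% and 27.7% of all genes. Rpl7l1, whose product acts in the nucleolus in assembly of the large subunit, had a peak in both. Rps19bp1, which encodes a binding partner of the Rps19 protein, had one in proliferating cells only. Rpl36al, an autosomal paralog of Rpl36a, and Rps27l, a p53-responsive paralog of Rps27, had one in differentiating cells only. No promoter peak was listed for Rpl10l and Rpl39l, paralogs known from the testis, for Rpl3l, a paralog known from muscle, or for Rpl22l1 and Rps27rt. The peak nearest to Rpl10l lay 126193 bp away and that nearest to Rpl22l1 24174 bp away, whereas for Rpl3l a differentiating peak lay 7239 bp from the TSS.

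The overlap between the states was near that of all protein-coding genes. Of the 42 members with a promoter peak in proliferating cells, 78.6% also had one in differentiating cells, beside 74.2% of all protein-coding genes. In the other direction 63.5% of the 52 members also had one in proliferating cells, and the share over all genes was likewise 63.5%. For 32 of the 33 members with a peak in both lists the strongest promoter peaks overlapped. Over all protein-coding genes they did so for 3696 of 3867 (95.6%). In Rpl35a, the exception, the strongest proliferating peak lay between −2712 and −2364 bp, at the neighbouring gene Iqcg. A further proliferating peak of Rpl35a, from +253 to +572 bp with a fold enrichment of 3.64, overlapped its differentiating peak, from −127 to +545 bp. Spearman's rho of the fold enrichments over the 33 members was 0.397, and over the 3867 genes with a peak in both lists 0.425, across genes that share the libraries.

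**Figure D2:**
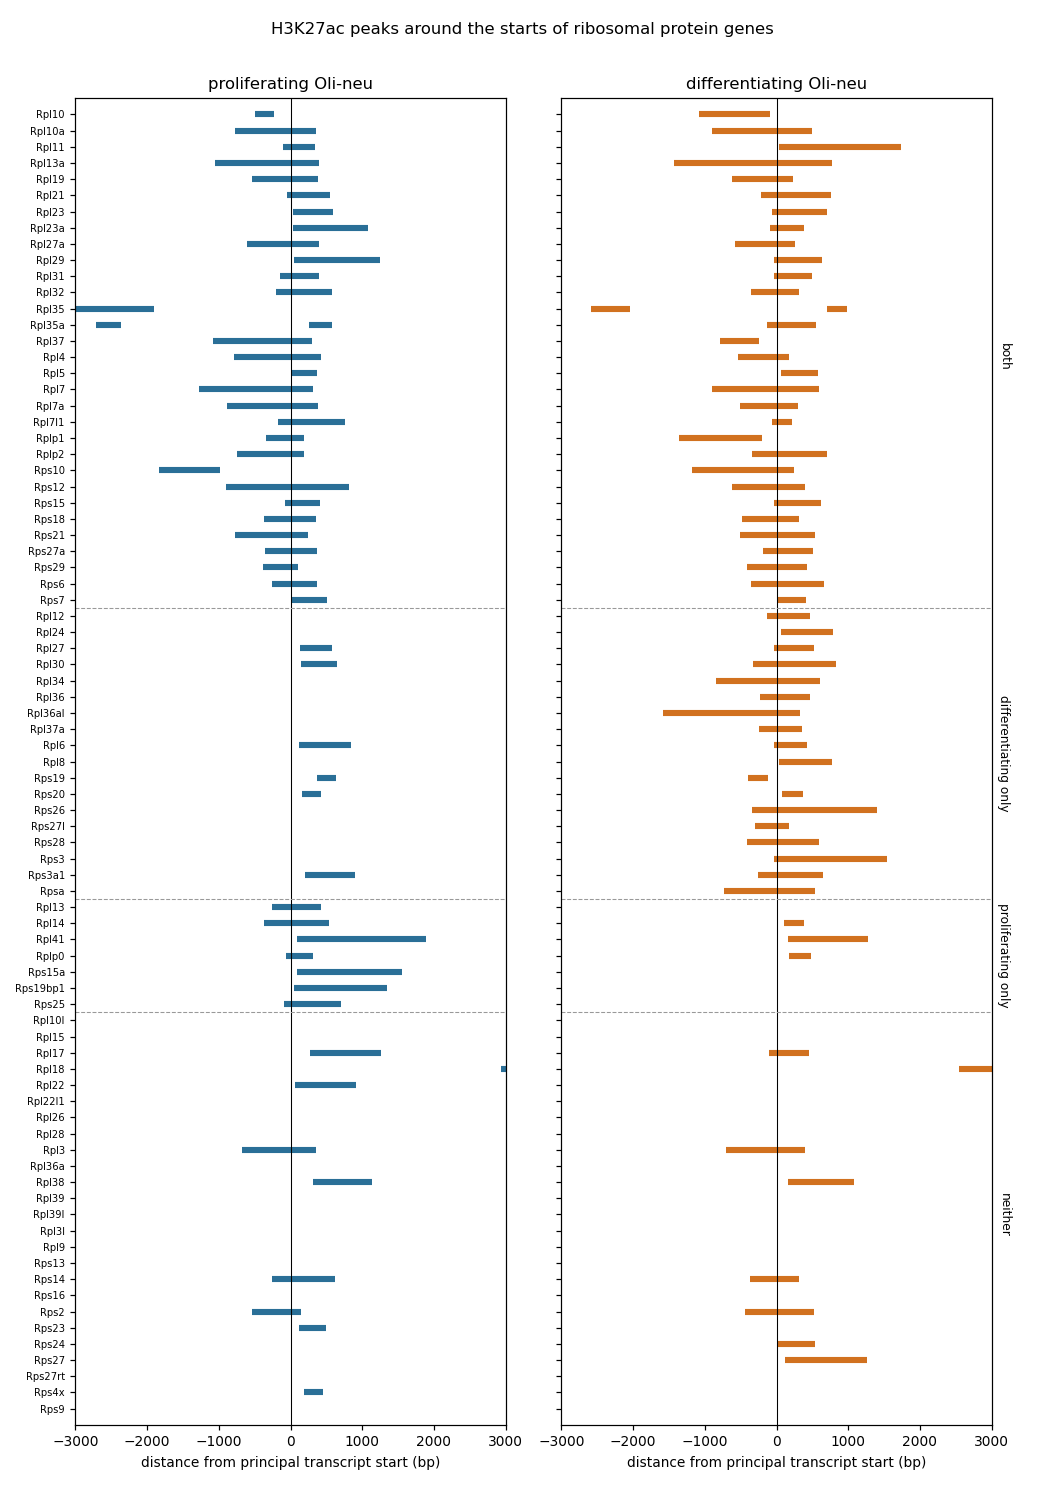
H3K27ac peaks (bars) within 3000 bp of the start of the principal transcript of each of 81 ribosomal protein genes, with distance in bp on the horizontal axis and 1 gene per row, in proliferating (left) and differentiating (right) Oli-neu cells. Rows are grouped by promoter peaks at the gene record's start in both lists, in differentiating cells only, in proliferating cells only and in neither; several genes outside the first group have a bar just to the right of the start.

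Within a list, the strength of a peak was read as the fold enrichment the authors deposited and as its percentile, the share of that list's peaks with a lower value. In proliferating cells the strongest promoter peaks of the 42 members ranged in fold enrichment from 2.86 to 11.0 with a median of 3.73, at the 78.1st percentile. The promoter peaks of all protein-coding genes, 4512 peaks, had a median at the 72.4th percentile. In differentiating cells the 52 members ranged from 2.50 to 5.63 with a median of 3.47, at the 75.7th percentile, beside the 73.6th for the 5281 promoter peaks of all genes. Of the member peaks, 6 of 42 (14.3%) in proliferating and 10 of 52 (19.2%) in differentiating cells had a −log10 q of 5 or more, as did 13.6% and 15.2% of all promoter peaks. In proliferating cells 33.3% of member peaks lay at or above the 90th percentile of fold enrichment of their list and 16.7% below its median, beside 23.5% and 29.5% of all promoter peaks. In differentiating cells these shares were 28.8% and 23.1% for members and 24.2% and 26.6% for all. The median width of member peaks was 881.5 bp in proliferating and 774.5 bp in differentiating cells, beside 863 and 912 bp for all promoter peaks.

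Rps29 stood apart from the other members in proliferating cells. Rps29 (ENSMUSG00000034892.8, a small zinc-binding 40S protein) had a peak from −390 to +99 bp of its TSS with a fold enrichment of 11.0 and a −log10 q of 38.9. This was the highest fold enrichment among the 4512 promoter peaks and the 31st among all 28924 peaks of the list. In differentiating cells its peak (−406 to +427 bp) had a fold enrichment of 5.57 and ranked 217th of 27965. Both peaks also cover Rn7s1, a gene of the 7SL RNA of the signal recognition particle, at chr12:69159295-69159594. The second 7SL gene, Rn7s2, on the same chromosome at chr12:69361182-69361481, also lay under a peak in each list, with fold enrichments of 6.79 and 4.99. Which of the adjoining genes the signal belongs to cannot be told apart, and the part played by reads shared between the 7SL copies was not tested.

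Behind Rps29 the highest proliferating values included 5.22 for Rpl11, 5.03 for Rps15 and 4.83 for Rpl23. Rpl11, which with Rpl5 and the 5S rRNA forms the 5S particle that restrains MDM2, stood at the 98.5th percentile in proliferating cells (−69 to +375 bp) and at the 81.1st in differentiating cells, where its peak began 63 bp downstream of the TSS. Rps15 (98.0th and 77.7th) and Rpl23 (97.5th and 94.8th) also had peaks in both lists. The lowest proliferating values included 2.86 for Rpl23a, 2.91 for Rps12, 2.99 for Rpl35 and 3.00 for Rps10. The Rpl35 peaks lay over the neighbouring gene Arpc5l, 1911 bp and more upstream of the Rpl35 TSS.

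In differentiating cells Rps7 came first with a fold enrichment of 5.63 and a −log10 q of 7.77. Its peak ran from +7 to +410 bp of the TSS and stood at the 99.3rd percentile, while its proliferating peak, from +16 to +504 bp, stood at the 77.0th. Rps29 followed, then Rpl27 with 5.49, Rps27a with 5.29 and Rpl32 with 4.53. Rps27a, which encodes a fusion of ubiquitin and a 40S protein, stood at the 99.0th percentile in differentiating and the 88.6th in proliferating cells. Rpl32 stood at the 97.1st and the 95.3rd. At the lower end were 2.50 for Rpl23a, 2.78 for Rpl10a, 2.84 for Rpl12, 2.88 for Rpl35 and 2.89 for Rps3a1. Rpl23a was thus last in both lists, and Rpl10a stood at the 62.0th percentile of the proliferating and the 11.9th of the differentiating list; whether ranks differ between the states was not tested.

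Among the 33 members with a peak in both lists, 15 had the higher percentile in differentiating cells, and the median difference, differentiating minus proliferating, was −2.71 percentile points. Over all 3867 such genes the median difference was 0.507.

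**Figure D3:**
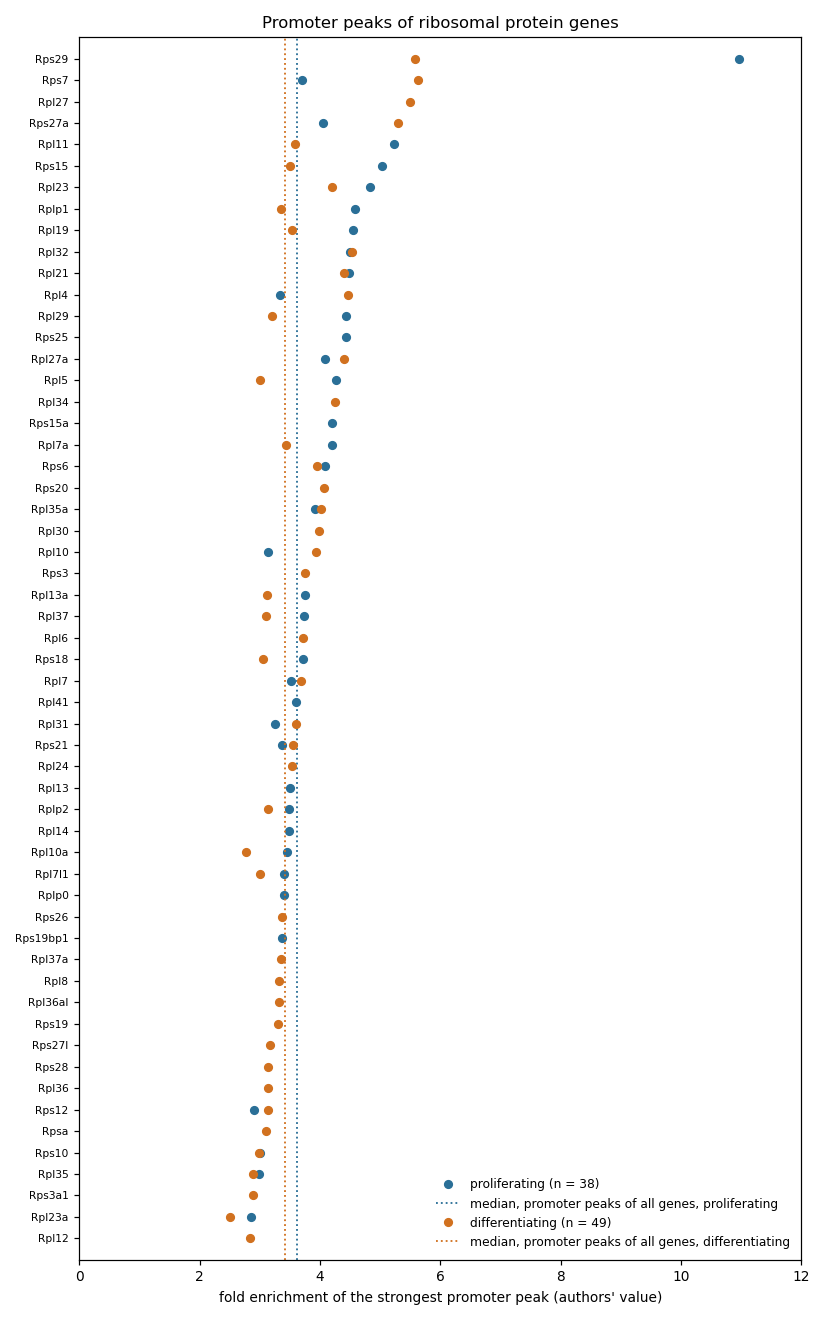
Fold enrichment (the authors' value, horizontal axis) of the strongest promoter peak of each of 56 ribosomal protein genes, in proliferating (blue, 38 genes) and differentiating (orange, 49 genes) Oli-neu cells; dotted lines mark the medians over the promoter peaks of all protein-coding genes. Rps29 in proliferating cells, at 11.0, lies far to the right of all other points, which fall between 2.50 and 5.63.

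A promoter peak in differentiating cells only was listed for 19 members, or 22.1% of 86, where 10.1% of all genes had this pattern. The highest fold enrichments were those of Rpl27 (5.49), Rpl34 (4.25), Rps20 (4.07), Rpl30 (3.99) and Rps3 (3.76). Rpl6 (3.73), Rpl24 (3.54), Rps26 (3.37) and Rpl37a (3.35) were lower. For 6 of the 19 genes the proliferating list held a peak that began just past the downstream limit of 100 bp. In Rpl27 it ran from +134 to +582 bp with a fold enrichment of 4.67, at the 96.6th percentile, and in Rps20 from +155 to +424 bp with 3.77. Rpl30, Rpl6, Rps3a1 and Rps19 were the others, with proliferating peaks that began 147, 120, 195 and 371 bp downstream. The 13 with no proliferating peak within 1000 bp of the TSS included Rpl12, Rpl24, Rpl34, Rpl36, Rpl36al, Rpl37a, Rpl8, Rps26, Rps27l, Rps28, Rps3 and Rpsa. In some of these the nearest proliferating peak was remote: 211902 bp from Rpl34, 189860 bp from Rpsa, the gene of a 40S protein also known as the laminin receptor precursor, and 122278 bp from Rps3.

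The reverse pattern, a promoter peak in proliferating cells only, was listed for 9 members, or 10.5%, where 6.13% of all genes had it. The shares of both patterns count marked and unmarked genes, and members more often had a peak in either list (70.9% beside 33.8%). Of members marked in proliferating cells 78.6% were also marked in differentiating cells, beside 74.2% of all genes. In the other direction both shares were 63.5%. An excess of members marked in a single state is therefore not shown. The fold enrichments of the 9 members included 4.43 for Rps25, 4.21 for Rps15a, 3.61 for Rpl41, 3.50 for Rpl13, 3.48 for Rpl14, 3.40 for Rplp0 and 3.36 for Rps19bp1. A differentiating peak within 1000 bp of the TSS was present in 4 of them. Rplp0, the gene of the stalk base protein, had one from +170 to +478 bp with a fold enrichment of 4.56, at the 97.2nd percentile of its list and so above the percentile of its proliferating promoter peak, 56.3. Rpl14 and Rpl41 had differentiating peaks from 103 and 161 bp downstream. Rpl13, Rps15a, Rps19bp1 and Rps25 had none within 1000 bp; for Rps25 the nearest differentiating peak lay 10574 bp away.

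The remaining 25 members (29.1%) had no promoter peak in either list, as did 66.2% of all genes. In 7 of them a peak still lay within 1000 bp of the TSS of the gene record, always starting more than 100 bp downstream: Rpl22, Rps23 and Rps4x in proliferating cells, Rps27 in differentiating cells, Rpl38, whose product affects translation of Hox mRNAs, in both, and Rps14 and Rpl3, in each case in 1 list. The peak near the gene record's start also lay over another protein-coding gene in Rps14 (Ndst1, proliferating) and in Rpl3 (Syngr1, differentiating). Rps23 had a proliferating peak from +122 to +493 bp with a fold enrichment of 4.02, at the 88.0th percentile. The gene record of 6 members starts more than 1000 bp from the start of the principal coding transcript: 27498 bp in Rps14, 8462 in Rpl3, 3593 in Rps24, 1947 in Rps2, 1919 in Rpl17 and 1124 in Rps10. Around the principal start Rps14, Rpl3, Rps2 and Rpl17 had a peak in both lists and Rps24 in differentiating cells. When windows of 1000 bp around either start were accepted, 71 of 86 members had a peak in at least 1 list, beside 38.3% of all genes. The 15 with none were Rpl10l, Rpl15, Rpl18, Rpl22l1, Rpl26, Rpl28, Rpl36a, Rpl39, Rpl39l, Rpl3l, Rpl9, Rps13, Rps16, Rps27rt and Rps9. They include 10 canonical subunit genes, and the X-linked Rpl36a and Rpl39 lay 423168 bp and 668604 bp from the nearest peak of either list. Of the 4 members on the X chromosome only Rpl10 had a promoter peak, and over all 948 protein-coding genes of that chromosome 7.07% had one in either list. That no peak was listed says that none passed the peak caller's threshold at this depth, not that the mark was absent.

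The peaks of the members lay over the start and the beginning of the transcribed region. At the principal start, coverage of 60S genes was highest 150 bp downstream in proliferating cells (58.7% of the 46 genes) and 200 bp downstream in differentiating cells (69.6%). For 40S genes it was highest 200 bp downstream in proliferating (54.8%) and 150 bp downstream in differentiating cells (67.7%). Over all protein-coding genes the maximum was 200 bp downstream in both lists, at 19.4% and 23.6%. At 1000 bp upstream of the principal start 4.65% of members were covered in proliferating and 5.81% in differentiating cells, beside 3.25% and 3.63% of all genes. The difference between members and other genes was thus seen near the start and was small beyond 1000 bp.

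**Figure D4:**
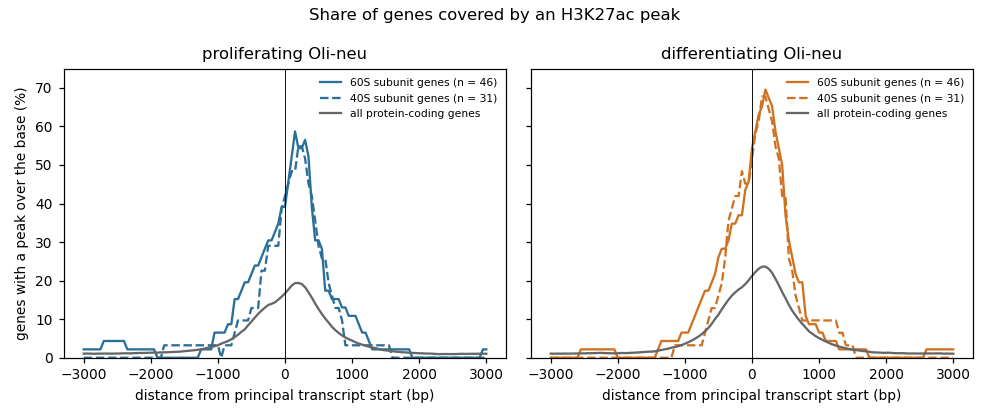
Share of genes with an H3K27ac peak over each base (%, vertical axis) by distance from the principal transcript start (bp, horizontal axis), for 60S genes (solid colour), 40S genes (dashed colour) and all protein-coding genes (grey) in proliferating (left) and differentiating (right) Oli-neu cells. The curves of both subunits peak 150 to 200 bp downstream of the start, at 54.8% to 58.7% in proliferating and 67.7% to 69.6% in differentiating cells, above the grey maxima of 19.4% and 23.6%.

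The TSS base itself was under a peak in 30 members in proliferating cells (16% of all genes) and in 40 in differentiating cells (20.4%). Among members with a peak within 1000 bp of the TSS, the strongest lay wholly downstream in 21 of 52 (40.4%) in proliferating and 14 of 59 (23.7%) in differentiating cells. Over all protein-coding genes these shares were 30.5% and 25.8%. Of the promoter peaks that missed the TSS, 9 of 12 in proliferating cells lay downstream, among them Rpl23, Rpl23a, Rpl29, Rpl41, Rpl5, Rps15a, Rps19bp1 and Rps7. In differentiating cells the 12 split evenly, with Rpl11, Rpl24, Rpl5, Rpl8, Rps20 and Rps7 downstream and Rpl10, Rpl35, Rpl37, Rplp1 and Rps19 among those upstream. Rpl10, whose product helps form the P site of the large subunit, was marked upstream in both, from −494 to −232 bp in proliferating (30.7th percentile) and from −1076 to −91 bp in differentiating cells (91.1st).

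Members were also read by their place in the ribosome, in groups too small to be set apart from the 48.8% and 60.5% of all members or the 23.7% and 27.7% of all genes. Both genes of the 5S particle had a promoter peak in both lists; Rpl5 peaks began 21 and 55 bp downstream of the TSS, with fold enrichments of 4.27 and 3.01. Of the 4 genes of the stalk that recruits elongation factors, Rplp1 (4.58 and 3.36) and Rplp2 (3.49 and 3.14) had one in both lists, Rplp0 in proliferating and Rpl12 in differentiating cells. Of 8 genes whose proteins line the exit tunnel, Rpl4 (3.34 and 4.47), Rpl23a, Rpl31 (3.26 and 3.61) and Rpl35 had one in both lists and Rpl17, Rpl22, Rpl26 and Rpl39 in neither, which is 50% in each list. Near the peptidyl transferase centre, Rpl10 (3.14 and 3.94) had one in both, Rpl8 (3.32) in differentiating cells only and Rpl3 in neither. These counts depended on the start used. With the same region placed at the principal start, 5 of 8 exit tunnel genes had a peak in each list. Of the 3 genes near the peptidyl transferase centre, 2 then had one in proliferating and 3 in differentiating cells. Over all genes the shares at the principal start were 25.0% and 29.2%.

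The genes of proteins along the mRNA path of the 40S subunit, which bind the entry, the exit or the decoding site, had counts that depended on the window. A promoter peak was listed for 2 of 10 in proliferating cells, Rps15 among them, and for 7 of 10 in differentiating cells, where 23.7% and 27.7% of all genes had one. Within 1000 bp to either side of the TSS the counts were 5 and 7 of 10, and within the same distance of the principal start 6 and 9 of 10. Genes with a promoter peak by the first rule in differentiating cells only were Rps3 (3.76), Rps26 (3.37), Rps28 (3.14), Rpsa (3.11) and Rps3a1 (2.89), of which Rps3a1 had a proliferating peak from 195 bp downstream. Rps2, Rps14 and Rps23 had none by this rule. This list was drawn up with earlier results of these data known, and without replicates the difference between the states was not tested.

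Among 19 genes mutated in Diamond-Blackfan anaemia, 10 had a promoter peak in proliferating and 13 in differentiating cells, shares of 52.6% and 68.4% beside 48.8% and 60.5% of all members. Fau, which encodes a 40S protein as a fusion with a ubiquitin-like protein, had no promoter peak in either list. Rack1, a scaffold protein of the 40S head, had one in both, with fold enrichments of 4.29 and 3.56.

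Other genes of translation were counted in the same way. All 5 elongation factor genes had a promoter peak in both lists, with fold enrichments from 3.52 for Eef1a1 to 4.31 for Eef1d in proliferating and from 3.12 for Eef1g to 4.39 for Eef1d in differentiating cells. Within 1000 bp of the TSS 5 of 5 elongation factor genes had a peak in proliferating and 4 of 5 in differentiating cells, beside 26.9% and 31.1% of all genes. The differentiating peak of Eef2 lay further upstream. Of 7 other genes with TOP mRNAs, 6 had a promoter peak in each list. Initiation factors had one in 16 (53.3%) and 18 (60%) of 30, ribosome biogenesis genes in 10 (41.7%) and 14 (58.3%) of 24, and the 78 genes of mitochondrial ribosomal proteins in 24 (30.8%) and 36 (46.2%). By share the cytosolic ribosomal protein genes, at 48.8% and 60.5%, were near the initiation factors and the ribosome biogenesis genes, above the mitochondrial genes and below the elongation factors.

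The promoters of members differed from those of other genes in sequence. From 250 bp before to 50 bp after the gene's start, the median GC content was 55.3% in members and 55.0% in all protein-coding genes, but the median ratio of observed to expected CpG was 0.815 and 0.525. Promoters with more than 50% GC and a CpG ratio above 0.6 belonged to 60 of the 86 members. Of these 60, 55.0% had a promoter peak in proliferating and 61.7% in differentiating cells, beside 42.1% and 49.9% of all genes with such promoters. Of the other 26 members, which missed the GC limit, the CpG limit or both, 34.6% and 57.7% had one. Over all genes that missed a limit the shares were 10.9% and 12.3%. Such promoters were not all CpG-poor, as that of Rpl4 had 39.3% GC and a CpG ratio of 1.13. Members thus stood closer to all genes among promoters that met both limits than among the rest.

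In all 5 motifs were searched on both strands in the same window around the principal start. CCGGAA was held by 39 members (45.3%) and 18.1% of all genes. TCTCGCGA was held by 14 members (16.3%) and 1.38% of all genes. AAGATGG, the core of the YY1 site, was held by 12.8% and 6.33%, GGGCGG, the GC box of SP1, by 52.3% and 45.4%, and TATAAA, the TATA box, by 11.6% and 12.6%. A pyrimidine tract, a C followed by at least 6 further pyrimidines beginning within 15 bases of the start on the coding strand, was held by 30 members (34.9%) and 17.0% of all genes. The features overlapped, with 7 members that held both CCGGAA and TCTCGCGA and 17 that held both CCGGAA and the tract, and 29 held none of these 3. A match is a match of letters and says nothing of whether a factor was bound.

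**Figure D5:**
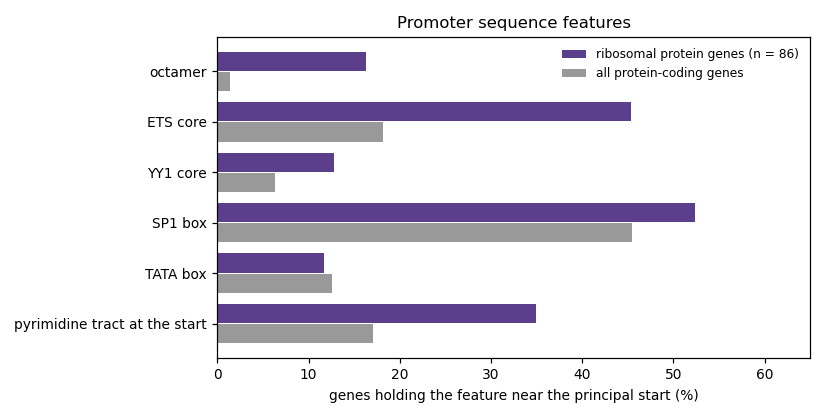
Share of genes (%, horizontal axis) that hold each sequence feature from 250 bp before to 50 bp after the principal start, the tract within 15 bases of it, for the 86 ribosomal protein genes (purple) and all protein-coding genes (grey). The members exceed the background in the octamer (16.3% and 1.38%), the ETS core (45.3% and 18.1%) and the pyrimidine tract (34.9% and 17.0%), while the TATA box is held by 11.6% and 12.6%.

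Members with CCGGAA had a promoter peak in 29 of 39 cases (74.4%) in differentiating and 19 of 39 (48.7%) in proliferating cells. Members without it had one in 23 of 47 (48.9%) in each list. Over all protein-coding genes the shares with and without CCGGAA were 44.2% and 24.0% in differentiating and 37.6% and 20.7% in proliferating cells. GGGCGG split the members the other way in differentiating cells, with a peak in 48.9% of those that held it and 73.2% of those that did not. In proliferating cells these shares were 48.9% and 48.8%. Over all protein-coding genes, those that held GGGCGG more often had a peak. The shares with and without it were 40.46% and 17.07% in differentiating and 34.18% and 15.02% in proliferating cells. For the pyrimidine tract the shares of members with and without it were 76.7% and 51.8% in differentiating cells. In proliferating cells they were 56.7% and 44.6%. None of these splits was tested. Of the 19 members marked in differentiating cells only, 12 held CCGGAA, among them Rpl27, Rps3 and Rpsa, and 2 of the 9 marked in proliferating cells only, among them Rpl14. It was also held by 17 of the 33 members marked in both lists and 8 of the 25 marked in neither. The share of CCGGAA among all genes marked in 1 list only was not counted.

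Of the 14 members with TCTCGCGA, 12 (85.7%) had a promoter peak in either list, beside 70.0% of the 303 genes with this octamer in the genome. Rpl10a, Rpl23a, Rpl27a, Rpl4, Rpl7a and Rps6 had one in both lists, Rps19, Rps28 and Rps3a1 in differentiating cells only, and Rps15a in proliferating cells only. Rpl17 and Rpl26 had none by the rule of the gene record. Members with a pyrimidine tract had a promoter peak in either list in 24 of 30 cases (80.0%) and those without in 37 of 56 (66.1%), while over all genes the shares were 33.8% with and 33.8% without. Members that host a small nucleolar RNA inside the gene, as many ribosomal protein genes do, had one in 24 of 30 cases (80.0%), and the others in 37 of 56 (66.1%). Where another protein-coding gene started within 1000 bp, as beside Rpl4 (Zwilch), Rpl7a (Med22) and Rps25 (Trappc4), it was 11 of 14 (78.6%), and the signal of the pair cannot be told apart. Members without such a neighbour had one in 50 of 72 cases (69.4%). The shares over all protein-coding genes with a small nucleolar RNA inside or a neighbouring start were not counted. Whether these splits are particular to members is therefore not known.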

How the data were processed

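H3K27ac ChIP-seq broad-peak lists were analysed, 1 per state. Per the labels and methods, the authors aligned reads to GRCm38/mm10 with Bowtie2 2.1.0, kept uniquely mapped reads, removed duplicates, called broad peaks with MACS2 2.0.10 and removed blacklisted regions; depth per peak is unknown. Each deposited peak carries a text cell that was read, from the peak caller's order of output, as a ratio (the fold enrichment) followed by the −log10 of p and of q. The weakest q was 0.0995 in the proliferating and 0.0983 in the differentiating list, looser than the q cutoff of 0.05 that the paper gives. With q of at most 0.05, 42 members had a promoter peak in proliferating and 52 in differentiating cells, beside 23.5% and 26.9% of all genes. Fold enrichment was ranked only within its own list.

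Starts came from GENCODE M21, motifs and sequences from the RefSeq GRCm38.p6 genome; 66 of the 86 members are in the RefSeq promoter table. The principal transcript was chosen by APPRIS, then support level. Where several peaks met a region, the one of highest fold enrichment was used. Genes named are, in each list, the 5 members of highest and lowest fold enrichment, members marked in 1 list only (up to 10), those whose peak missed the TSS, listed functional groups, non-canonical symbols and members without a peak; the values of a few genes are not reported here, and the plots by gene leave them out, while counts include them. Members, gene lists and motifs were chosen with earlier results of these data known. Python 3.11.15, numpy 2.4.6, pandas 2.3.3, scipy 1.17.1 and matplotlib 3.10.9 were used. With 1 library per state no test was run. On simulated lists with 200 planted promoter peaks, 100% were recovered and 0 of the other genes were called, over 21951 genes in each list.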

Additional observations from a re-analysis of the deposited data

How the results depend on the processing

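Of 62 values recomputed under other settings, 52 stayed within the limits set (a factor of 1.5 for counts). The rest were lower counts of members with a promoter peak under stricter calls. With a −log10 q of at least 5 the counts were 6 in proliferating cells, 10 in differentiating cells, 13 in either list and 3 in both. With at least 0.5 of the peak inside the region they were 22, 26, 33 and 15. The count in both lists was 21 when only peaks at or above the list's median fold enrichment counted, and also 21 when the peak had to cover the TSS. In each of these settings the share of members exceeded that of all genes, for example 6.98% beside 3.27% for a −log10 q of at least 5 in proliferating cells. The start at the principal transcript, with 1000 bp on both sides, was chosen after seeing the data and gave 55, 63, 71 and 47. No paired analysis was possible because each state has 1 library. For the same reason no library could be left out, and the spread between cultures is unknown.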

Other observations

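Processed pseudogenes of ribosomal protein genes carried few peaks. Of 294 processed pseudogenes whose symbols start with Rpl or Rps and carry the pseudogene suffix, 3 (1.02%) overlapped a peak in proliferating and 2 (0.680%) in differentiating cells, and none in both. Over all 10236 processed pseudogenes the shares were 1.96% and 1.61%. The 5 were Rpl30-ps6, Rpl35-ps1, Rps10-ps3, Rps2-ps3 and Rps7-ps1, named after their values were seen. The 6 protein-coding symbols with the pseudogene suffix overlapped none.

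Ribosomal protein genes are short, with a median length of 3328.5 bp beside 17403 bp for all protein-coding genes. Among members with a peak within 1000 bp of the TSS the median peak ended 498.5 bp downstream in proliferating and 538 bp downstream in differentiating cells, close to the 536.5 and 555 bp of all protein-coding genes.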
